A study of Mus musculus with 2 samples.

Results

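The cells described here are the cycling leukocytes of mouse liver, 95 of the 7603 cell barcodes kept from 2 single-cell libraries. A barcode was counted as cycling when its raw UMIs (unique molecular identifiers, tags that count captured transcripts once) of Mki67, Top2a, Birc5 and Ube2c summed to 4 or more. Kept barcodes had at least 200 genes and at most 10% of UMIs from mitochondrial genes. The Ctrl library, from uninjured C57BL/6 mice, held 59 cycling cells of 3446 kept, and the RES library, from C57BL/6 mice whose liver fibrosis had resolved, held 36 of 4157.

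The study sequenced transcript 3′ ends of liver mononuclear cells that had been taken from a Histopaque gradient and sorted for the leukocyte antigen CD45 and the integrin CD11b. Cells from 5 mice were pooled for each library, with 1 library per group, and group and library cannot be told apart. The agent that caused the fibrosis, the time of resolution, and the sex and age of the mice were not given in the sources used here. No difference had a replicate check. Cells are not replicates, the members were chosen by their UMIs of the 4 genes, and all values below are therefore a description without a test. Intervals are exact 95% intervals that cover counting error only. The share that a count of 0 allows is a separate limit, 3 counts of the cells, and it limits cells with a UMI, not cells that express a gene.

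Proliferating cells copy their DNA in S phase and separate the chromosomes in mitosis, and they switch on separate sets of genes for each. The 4 genes of the rule belong mostly to the later set. Mki67 encodes a protein that coats mitotic chromosomes and is the usual histological mark of proliferation. Top2a encodes the topoisomerase that untangles sister chromatids, Birc5 (survivin) is a subunit of the chromosomal passenger complex, and Ube2c is a ubiquitin-conjugating enzyme that works with the anaphase-promoting complex. Many genes of this late set carry a CHR element (TTTGAA) and CCAAT boxes in front of their start, which are bound by the DREAM and B-MYB complexes and by NF-Y. In the liver, most resident leukocytes are mature cells that rarely divide, while dendritic cell precursors, plasmablasts and activated lymphocytes can divide outside the bone marrow.

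The bases in front of the 4 genes of the rule are shown because these genes define the cells, and because the genes higher in cycling cells are set against them further on. They come from RefSeq on build GRCm38.p6, and 250 bases before each start were searched on both strands. Capitals mark TTTGAA and CCAAT (or TTCAAA and ATTGG where the motif lies on the other strand).
Mki67: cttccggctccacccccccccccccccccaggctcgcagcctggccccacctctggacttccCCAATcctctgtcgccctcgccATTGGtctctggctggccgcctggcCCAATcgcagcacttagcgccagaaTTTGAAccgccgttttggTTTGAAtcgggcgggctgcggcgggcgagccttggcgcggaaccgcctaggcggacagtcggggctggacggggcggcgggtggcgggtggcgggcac
Top2a: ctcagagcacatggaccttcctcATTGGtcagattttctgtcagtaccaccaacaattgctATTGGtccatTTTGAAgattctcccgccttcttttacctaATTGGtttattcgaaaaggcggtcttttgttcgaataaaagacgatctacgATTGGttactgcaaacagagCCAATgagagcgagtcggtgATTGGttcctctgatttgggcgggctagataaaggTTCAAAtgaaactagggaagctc
Birc5: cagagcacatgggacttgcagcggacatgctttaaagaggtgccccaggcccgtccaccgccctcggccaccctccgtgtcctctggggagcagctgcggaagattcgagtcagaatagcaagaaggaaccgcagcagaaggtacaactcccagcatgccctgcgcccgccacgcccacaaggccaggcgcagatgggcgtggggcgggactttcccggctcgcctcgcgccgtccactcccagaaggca
Ube2c: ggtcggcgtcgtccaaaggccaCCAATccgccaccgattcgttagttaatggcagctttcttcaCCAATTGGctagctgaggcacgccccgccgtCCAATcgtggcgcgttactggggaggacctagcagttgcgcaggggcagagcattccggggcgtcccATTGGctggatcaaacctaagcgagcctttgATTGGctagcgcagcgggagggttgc
They lie at chr7:135716380-135716629 on the minus strand, chr11:99024190-99024439 on the minus strand, chr11:117848987-117849236 on the plus strand and chr2:164769679-164769897 on the plus strand, and each is printed 5′ to 3′ along its gene. For Ube2c, 31 of the 250 bases lie within the first exon of the gene in the GENCODE annotation and are not printed. Mki67 had 2 TTTGAA and 3 CCAAT motifs, Top2a had 2 and 6, and Ube2c had 1 (29 bases before its start, in the unprinted bases) and 6, of which 1 pair overlaps. In Birc5 neither string of letters was found in this window. Among all 27025 genes with such a window, 18.3% held TTTGAA, 37.5% held CCAAT and 6.45% held both. A match is only a match of letters and shows no binding.

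Before the results, 56 barcodes were found in both libraries. In 54 of them the Ctrl copy was the shallower, with 504 to 3480 UMIs (median 629.5) against 21907 to 44791 (median 29543) in the RES copy. Among the cycling cells, 2 of 59 in Ctrl and 10 of 36 in RES had such a barcode. Both Ctrl cells were shallow copies, with 768 and 776 UMIs and a 4-gene sum of 5 each, and their RES copies had sums of 118 and 107. The 10 RES cells were 4 dendritic cells, 2 natural killer (NK) cells, 2 cells named plasma cells and 2 with mixed markers. The shares of cycling cells, the NK 4-gene sums and some dendritic and plasma cell values are given with and without them. Other results include them and are not given without them. Among these are the lineage make-up, the levels of cell cycle lists, the comparisons with noncycling cells and the NK comparison between libraries.

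Cycling cells made up 1.71% of kept Ctrl cells (59 of 3446, 1.31 to 2.20) and 0.866% of kept RES cells (36 of 4157, 0.607 to 1.20). RES cells were sequenced more deeply, so each cell was also thinned to 2000 UMIs, with a sum of at least 2 counted as cycling, and the 225 Ctrl and 153 RES cells below that depth left out. The shares were then 1.49% (48 of 3221) and 0.724% (29 of 4004). With a 4-gene sum of at least 20 they were 0.696% (24 cells) and 0.337% (14 cells). Without any shared barcode they were 1.68% (57 cells) and 0.634% (26 cells), a setting that took 2 Ctrl and 10 RES members. Without only the shallower copies, 57 of 3392 Ctrl and 36 of 4156 RES cells were cycling. The Ctrl share was the higher under each of these settings.

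The 4-gene sum ranged from 4 to 174 in Ctrl, with a median of 10, and from 4 to 150 in RES, with a median of 15. The plot of the sum against depth shows that the members run from barely over the limit to sums far above it. The 38 cells with a sum of 20 or more held 84.0% of the members' UMIs of the 4 genes, while 22 cells had a sum of 4 or 5. Just outside the rule, 16 Ctrl and 20 RES cells had a sum of exactly 3, with median depths of 9342.5 and 9048 UMIs. Just inside, 10 Ctrl and 3 RES cells had a sum of exactly 4, with median depths of 8321 and 9098 UMIs. All 4 genes were seen in 40 members, and 9 members passed on 1 gene alone.

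**Figure D1:**
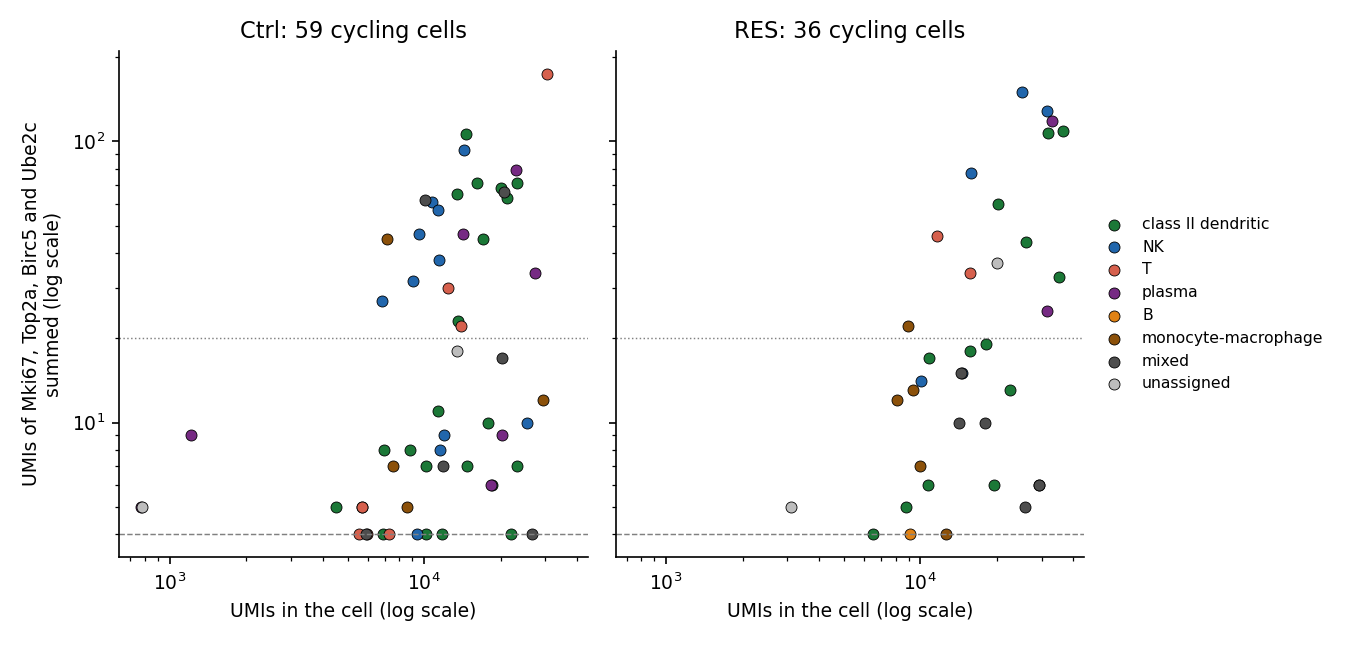
Sum of Mki67, Top2a, Birc5 and Ube2c UMIs (log axis) against total UMIs (log axis) of each cycling cell, in Ctrl (59 cells) and RES (36 cells), with colours for the lineage; the dashed line is the limit of 4 and the dotted line a sum of 20. Members spread from 4 to 174 in Ctrl and from 4 to 150 in RES, and 22 of the 95 have a sum of 4 or 5.

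Mki67 was seen with 561 UMIs in the Ctrl members and 433 in the RES members, 82.0% and 78.7% of all its UMIs in kept cells. For Birc5 these shares were 97.0% in Ctrl and 93.0% in RES. Top2a was the least restricted, at 71.3% and 66.0%, and Ube2c lay between, at 89.2% and 74.9%. Stmn1, which encodes the tubulin-destabilising protein stathmin and was not used by the rule, had a UMI in 49 of 59 and 32 of 36 members. After thinning it was seen in 64.3% and 63.9% of members against 6.51% and 4.96% of noncycling cells, all other kept cells. On GRCm38, in GENCODE M21, Mki67 lies at chromosome 7, 135689784 to 135716361 (minus strand), Top2a at chromosome 11, 98992943 to 99024189 (minus strand), Birc5 at chromosome 11, 117849251 to 117855743 (plus strand), and Ube2c at chromosome 2, 164769898 to 164778822 (plus strand).

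The cycling cells were deeper than the rest. The median member had 11908 UMIs in Ctrl and 15766 UMIs in RES, while the median noncycling cell had 4518 and 6442, and the median numbers of genes were 3247 and 3847 against 1819 and 2284. A raw sum of 4 is reached more easily in a deep cell, and the part of depth in which cells were chosen was not tested beyond the thinned values. The labelled sort was checked on its own genes. Ptprc, which encodes CD45, was seen in 94.9% and 100% of members, but after thinning in 76.8% and 72.2% of them against 95.5% and 89.1% of noncycling cells. Itgam, which encodes CD11b, was seen in 49.2% of Ctrl and 55.6% of RES members against 55.7% and 75% of noncycling cells. At 2000 UMIs per cell the Itgam shares were 10.7% and 16.7% in members and 33.0% and 46% in noncycling cells, so members had both antigens' messages less often at equal depth. The antigens themselves are proteins and were not measured here.

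Each cell was given a lineage from its UMIs of a few markers, with thresholds that were set after the data were seen. Class II dendritic cells, which present antigen to T cells, were the largest group of the cycling cells in both libraries. They numbered 22 in Ctrl, 37.3% of the cycling cells (25 to 50.9), and 13 in RES, 36.1% (20.8 to 53.8), but 9.24% and 6.99% of noncycling cells. NK cells, innate lymphocytes that kill stressed cells, numbered 11 (18.6%) and 5 (13.9%), against 42.1% and 34.7% of noncycling cells. Monocytes and macrophages numbered 4 (6.78%) and 5 (13.9%), against 32.2% and 45.3% of noncycling cells.

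T cells (7 and 2) and cells named plasma cells for Jchain and Mzb1 (7 and 2) each made up 11.9% of the Ctrl and 5.56% of the RES cycling cells. Both classes were rare among noncycling cells, at 0.945% and 1.07% for T cells and 0.443% and 0.461% for cells named plasma cells. A single B cell was cycling, in RES. Markers of more than 1 lineage were carried by 6 cells of each library, and 2 cells of each carried none. The doublet caller marked 1 Ctrl and 3 RES members, all of them among these mixed cells.

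The plot of lineage shares sets raw and thinned cells side by side. Noncycling dendritic cells had a median of 8750 UMIs in Ctrl and 11710.5 in RES, and noncycling NK cells 3399 and 4159. When cycling cells were picked at 2000 UMIs per cell, the dendritic share of them was 33.3% in Ctrl and 20.7% in RES, and the NK share 35.4% and 27.6%. Monocytes and macrophages then took 6.25% and 27.6%. Which lineage led therefore depended on the depth at which cells were picked. The dendritic share stayed above its noncycling share, and the monocyte and macrophage share below its own, at either depth.

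**Figure D2:**
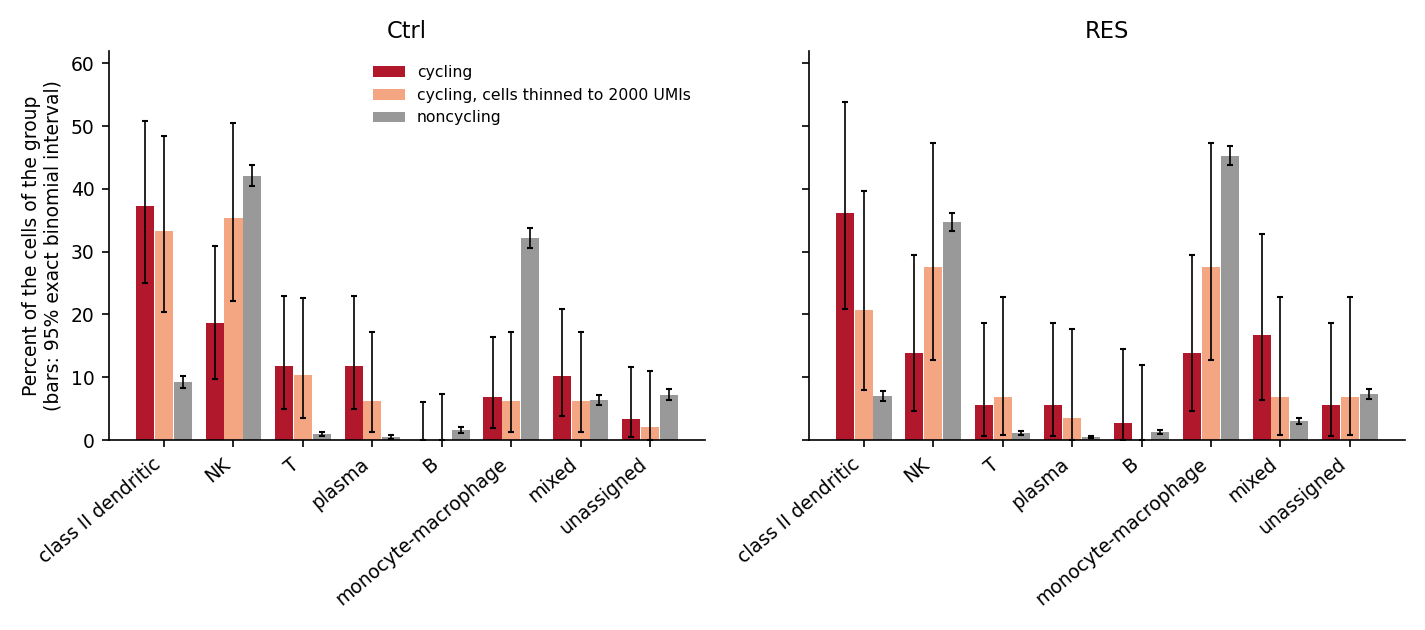
Percent of cells in each lineage among cycling cells, among cycling cells picked after thinning to 2000 UMIs, and among noncycling cells, in Ctrl and RES; bars are shares and error bars exact 95% binomial intervals. Class II dendritic cells are 37.3% and 36.1% of cycling but 9.24% and 6.99% of noncycling cells.

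The single marker genes are given next without lineage names. All of them but Hbb-bs had also named the lineages, so they give no independent support for the lineage shares. H2-Ab1, an MHC class II chain, was seen in 62.5% of Ctrl and 63.9% of RES members at 2000 UMIs per cell, against 33.4% and 29.1% of noncycling cells (unthinned 81.4% and 72.2% against 39.9% and 40.7%). Ncr1 or Klrb1c, which encode the NK cell receptors NKp46 and NK1.1, was seen in 26.8% and 19.4% against 46.6% and 35.8% (unthinned 28.8% and 27.8% against 50.9% and 39.9%). Lyz2, the lysozyme gene of myeloid cells, was seen in 33.9% and 41.7% against 49.8% and 63.0% (unthinned 54.2% and 75% against 57.6% and 73.4%). As a background, H2-Ab1 was seen in 13.7% and 13.6% of noncycling NK cells, whose median depths were 3399 and 4159 UMIs. Class II was thus more frequent in the members than in the other cells, and the NK and myeloid markers less frequent at equal depth.

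Cd79a, part of the B cell receptor, was seen in 10.7% and 11.1% of thinned members against 3.57% and 3.70% of noncycling cells (unthinned 15.3% and 11.1% against 4.04% and 4.68%). Jchain, which joins IgA and IgM chains, was seen in 10.7% and 8.33% against 0.442% and 0.202% (unthinned 11.9% and 11.1% against 0.827% and 0.461%). Hbb-bs, a haemoglobin chain, was seen with 1 UMI in 1 Ctrl member and with 1 UMI each in 5 RES members. After thinning it was seen in 0 of 56 and 0 of 36 members, which allows shares of cells with a UMI of up to 5.36% and 8.33%, against 0.316% and 2.12% of noncycling cells. Noncycling NK cells, which should lack Jchain, had it in 0.702% and 0.210%. The erythroid genes Alas2, Car1 and Klf1 were at 0 in the members of both libraries, as were the listed genes of mast cells and basophils and of stellate cells. No member therefore carried an erythroid profile.

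Within a lineage, cycling was most frequent in the rare lymphoid classes and in dendritic cells. In Ctrl, 7 of 22 cells named plasma cells (31.8%, 13.9 to 54.9) and 7 of 39 T cells (17.9%, 7.54 to 33.5) were cycling. In RES these were 2 of 21 (9.52%) and 2 of 46 (4.35%). Most noncycling cells named plasma cells lacked Jchain, which was seen in 3 of 15 in Ctrl and 7 of 19 in RES. The B cell gene Ms4a1 was seen in 10 and 15 of them. The shares of that name are therefore not shares of plasma cells alone. Of dendritic cells, 6.57% were cycling in Ctrl (22 of 335, 4.16 to 9.77) and 4.32% in RES (13 of 301, 2.32 to 7.27). Among NK cells the share was 0.766% (0.383 to 1.37) and 0.349%, and in monocytes and macrophages 0.366% and 0.267%. B cells gave 0 of 54 in Ctrl, which allows a share of up to 5.56%, and 1 of 51 in RES.

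The plot of shares within each lineage shows that Ctrl was higher than RES in all named lineages except B cells, on a log axis. At 2000 UMIs per cell the dendritic share was 4.94% in Ctrl and 2.01% in RES, the NK share 1.25% and 0.568%, and the T cell share 12.8% and 4.35%. Only monocytes and macrophages had the reverse order there, at 0.286% and 0.435%. Without any shared barcode the raw dendritic shares were 6.59% and 3.03% and the NK shares 0.767% and 0.210%. Counting intervals of Ctrl and RES overlapped for dendritic, NK and T cells in the raw values.

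**Figure D3:**
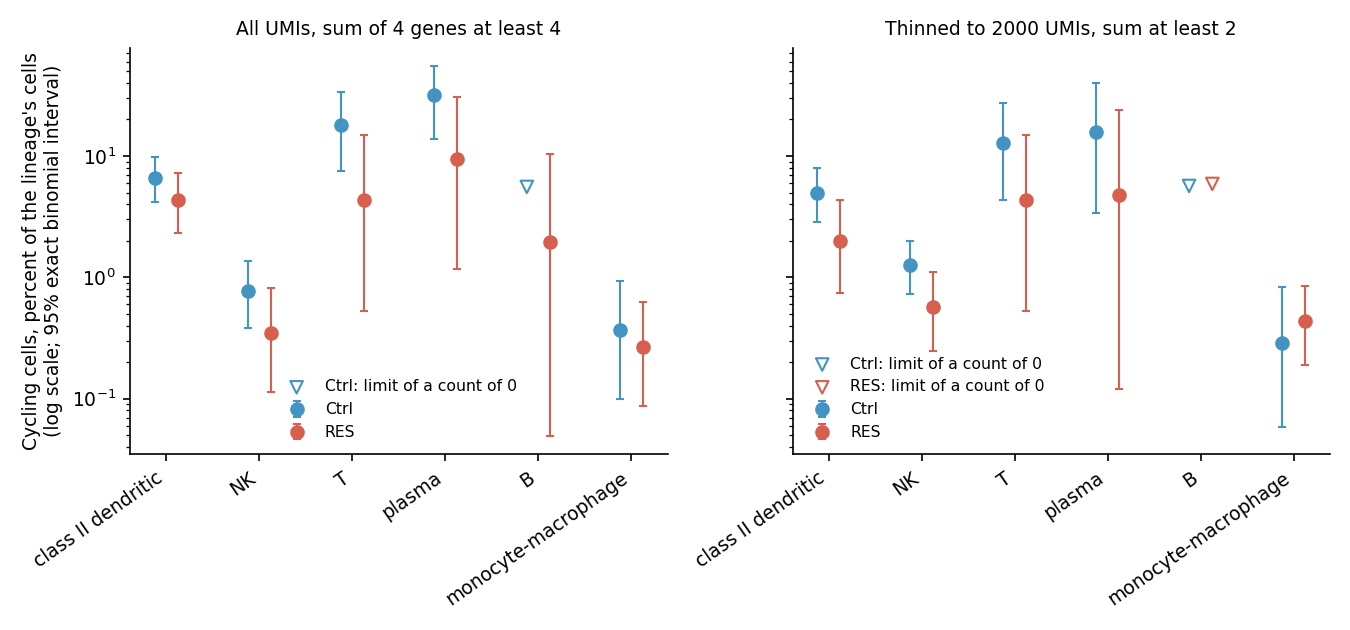
Percent of the cells of each lineage that were cycling (log axis) in Ctrl and RES, raw and after thinning to 2000 UMIs, with exact 95% binomial intervals; open triangles mark the limit that a count of 0 allows. The raw shares of T cells and of cells named plasma cells in Ctrl are 17.9% and 31.8%, and NK cells and monocytes or macrophages lie under 2%.

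The 35 cycling dendritic cells were checked against the fixed dendritic markers. Flt3, the receptor for the main dendritic cell growth factor, was seen in 14 of 22 and 11 of 13 of them, and Zbtb46, a transcription factor of conventional dendritic cells, in 13 and 6. Ccr7, the homing receptor of mature migrating dendritic cells, was seen in 0 of 22 and 0 of 13, against 3.83% and 7.99% of noncycling dendritic cells. Counts of 0 allow shares of cells with a UMI of up to 13.6% and 23.1% here, above those of noncycling cells. Siglech, a plasmacytoid marker, was seen in 1 Ctrl cell and in no RES cell.

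The cycling dendritic cells fell into visibly different profiles, which were chosen after the cells were seen. The first carried Irf8, the transcription factor of type 1 dendritic cells, with at least 10 UMIs in 8 of 22 Ctrl cells and 6 of 13 RES cells. All 14 of these had a UMI of Xcr1 or Clec9a, the chemokine receptor and the dead-cell receptor of that subset. Their Irf8 UMIs were 27, 32, 15, 46, 50, 10, 54 and 33 in Ctrl and 72, 75, 75, 38, 57 and 38 in RES. In the other 21 cells Irf8 did not exceed 2 UMIs, and the lowest of the 14 was the Ctrl cell at the limit of 10.

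These Irf8-high cells also had high 4-gene sums, with a median of 54 in Ctrl and 26 in RES. They were deep, with medians of 18575.5 and 27075.5 UMIs. Among noncycling dendritic cells, 19.8% in Ctrl and 13.5% in RES had at least 10 Irf8 UMIs. Among the deep ones, with UMIs at or above the lower quartile of the library's cycling cells, these shares were 30.1% and 17.4%. The deep ones were still shallower than the cycling dendritic cells, with medians of 10016 and 13600.5 UMIs against 14139 and 19490. The shares in cycling cells were 36.4% and 46.2%. Of the 6 RES cells, 3 had a shared barcode.

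A second profile had no Irf8 and at least 2 UMIs of Ltb, which encodes the membrane cytokine lymphotoxin beta. It was seen in 10 of 22 Ctrl cells and 2 of 13 RES cells, none of them with a shared barcode. Their H2-Ab1 UMIs ran from 12 to 115 in Ctrl, and Cd7, a surface protein of lymphoid and some dendritic cells, was seen in 9 of the 10. Xcr1 was at 0 in all 12. Their median 4-gene sum was 7.5 in Ctrl and 4.5 in RES, lower than in the Irf8-high cells. Among noncycling dendritic cells the profile was at 15.3% in Ctrl and 9.03% in RES.

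The last profile was seen in RES, in 2 of 13 cells, with at least 10 UMIs of Fn1, the matrix glycoprotein fibronectin. One had 153 Fn1, 41 Arg1, 16 Cd36 and 38 Ccl9 UMIs, and the other 10, 4, 14 and 27. Both had 0 UMIs of Flt3 and Zbtb46. Their markers therefore go against the dendritic name. Among noncycling RES cells of the class, 29.2% had at least 10 Fn1 UMIs, against 0 of 313 in Ctrl, which allows up to 0.958%. The class II dendritic class of RES thus held Fn1-carrying cells that the same class of Ctrl was not seen to hold, and comparisons within it carry them.

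Cd209a, a lectin of type 2 and monocyte-derived dendritic cells, was less frequent in cycling than in noncycling dendritic cells at equal depth. It was seen in 22.7% and 7.69% of thinned cycling cells (5 of 22 and 1 of 13) and 39.7% and 30.4% of noncycling ones, and raw in 54.5% and 23.1% against 54.6% and 40.6%. Xcr1 or Clec9a went the other way, at 22.7% and 38.5% of thinned cycling cells against 13.9% and 8.74% (raw 11 of 22 and 8 of 13 cells against 31.9% and 20.1%). Summed over cells, Cd209a was at 128 and 87.6 CPM (UMIs per 1000000 UMIs of the summed cells) in cycling and 434 and 363 CPM in noncycling dendritic cells. Clec9a was at 119 and 145 CPM against 82.4 and 54.8 CPM.

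In the 16 cycling NK cells the median 4-gene sum was 32 in Ctrl and 77 in RES, against 8 and 18 in dendritic cells. In Ctrl the 4-gene sums of the 11 cells were 93, 61, 57, 47, 38, 32, 27, 10, 9, 8 and 4, and in RES those of the 5 cells were 150, 128, 77, 15 and 14. The sums thus fell into a high range, from 27 upward, and a low range, up to 15, with no NK cell between. The highest 2 RES cells had shared barcodes. Without shared barcodes the NK median was 32 in Ctrl and 15 in RES (3 cells), so the order of the libraries turned. The dendritic medians were then 8 and 13. Cd3e, a subunit of the T cell receptor complex, was at 0 in all 16 cells. Another subunit gene, Cd3d, had 3 UMIs in a Ctrl cell and 1 in a RES cell. The receptor chain genes Trac and Trbc2 had up to 1 and 6 UMIs in Ctrl cells. Cells that passed the Cd3 limits had been set apart as mixed by the naming. Gzma, the cytotoxic protease granzyme A, had 63 to 250 UMIs in Ctrl and 134 to 277 in RES.

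Cxcr6, Il7r and Itga1, markers of the related type 1 innate lymphoid cells, were at 0 in the summed cycling NK cells of both libraries. The other genes of that list, Tnfsf10 and Tmem176b, had at most 2 and 1 UMIs in a cell. Gzma was close to level, at 12161 and 9920 CPM in cycling and 12111 and 11069 CPM in noncycling NK cells. Itgam was at 53.2 and 144 CPM in cycling NK cells against 236 and 267 CPM in noncycling NK cells. Against deep noncycling NK cells, at 102 and 112 CPM, it was lower in Ctrl and higher in RES. The cycling NK cells as a group thus carried the NK identity genes of the list, of which Ncr1 and Klrb1c had named them. The transcription factor gene Eomes and the receptor gene Klra8 were at 0 in some of the cells.

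Of the 7 cycling T cells in Ctrl, the 4-gene sums were 174, 30, 22, 5, 4, 4 and 4, and in RES they were 46 and 34. The Ctrl cell at 174 had the highest sum of any member, with 30537 UMIs, 26 UMIs of Cd8b1, the beta chain of the CD8 receptor of cytotoxic T cells, and 193 of Gzma. Cd8b1 was seen in 4 of 7 and 2 of 2 T cells. Sums were higher in the RES cells than in all but 1 Ctrl cell, among 9 cells in all.

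The cycling cells named plasma cells differed between the libraries. In Ctrl, 5 of 7 carried between 193 and 600 UMIs of Igha, the IgA heavy chain, and between 165 and 446 of Jchain, with 0 of Ighm, the IgM heavy chain. Their 4-gene sums were 79, 47, 34, 9 and 6. Of the 15 noncycling Ctrl cells of this name, only 1 had 100 or more Igha UMIs. The other 2 Ctrl members had 1210 UMIs (Ighm 108) and 768 UMIs, the latter a shared barcode.

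Both RES members of the name had shared barcodes, Igha at 0, Ighm at 802 and 16 UMIs, and the B cell genes Cd79a (39 and 46 UMIs) and Ms4a1, which encodes CD20 (8 and 34 UMIs). These B cell markers go against the plasma cell name, and without shared barcodes RES held 0 cycling cells of it among 26, which allows a share of up to 11.5%. The IgA-secreting profile was seen in the cycling cells of Ctrl, apart from 2 mixed cells, 1 in each library, with 341 and 40 Igha UMIs. A Ctrl to RES difference in cycling plasma cells thus rests on 5 cells.

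Among the 9 cycling monocytes and macrophages, the sums were 45, 12, 7 and 5 in Ctrl and 22, 13, 12, 7 and 4 in RES. Clec4f, Timd4, Vsig4 and Marco, genes of resident Kupffer cells, were at 0 in all 9. Ccr2, the receptor of recruited monocytes, had 1, 37, 14 and 13 UMIs in Ctrl and 7, 19, 0, 0 and 11 in RES. C1qa, a complement gene of macrophages, had 53, 16, 0 and 0 in Ctrl and 0, 3, 15, 4 and 0 in RES. The cells were thus a mixture of profiles, and those that passed on Mki67 alone (sums 7 and 5 in Ctrl, 4 in RES) had at most 13 UMIs of the listed G2/M genes.

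To place the members in the cycle, UMIs of the listed G1/S and G2/M genes, without the genes of the rule, were taken per 10000 UMIs of each cell. Cells with a 4-gene sum of 20 or more had a median of 37.2 G1/S and 139 G2/M UMIs, and 37 of the 38 had more of the G2/M list. Cells with sums of 6 to 19 had medians of 24.8 and 39.7, and were nearly evenly split, with 16 having more of the G1/S list and 18 more of the G2/M list. Cells with sums of 4 or 5 had medians of 8.59 and 30.2. Noncycling cells had medians of 7.46 and 16.1 in Ctrl and 6.44 and 15.5 in RES.

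The plot of G1/S against G2/M levels shows these steps. Noncycling cells also had more of the G2/M list in most cases (2711 of 3387 and 3581 of 4121), so that order alone marks no phase. The G1/S median of cells with sums of 4 or 5 was close to that of noncycling cells. More of the G1/S list was seen in 11 of 35 dendritic cells, among them Ctrl cells with sums of 10 (129 against 71 UMIs) and 7 (141 against 71), and a RES cell with a sum of 33 (254 against 126). It was also seen in 6 of 16 NK cells, those with sums up to 15, which had 109 against 66, 67 against 56, 81 against 53 and 58 against 43 G1/S and G2/M UMIs in Ctrl, and 110 against 104 and 101 against 89 in RES. NK cells as a whole had the higher levels of both lists, with medians of 58.8 and 162, against 19.8 and 62.3 in dendritic cells.

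**Figure D4:**
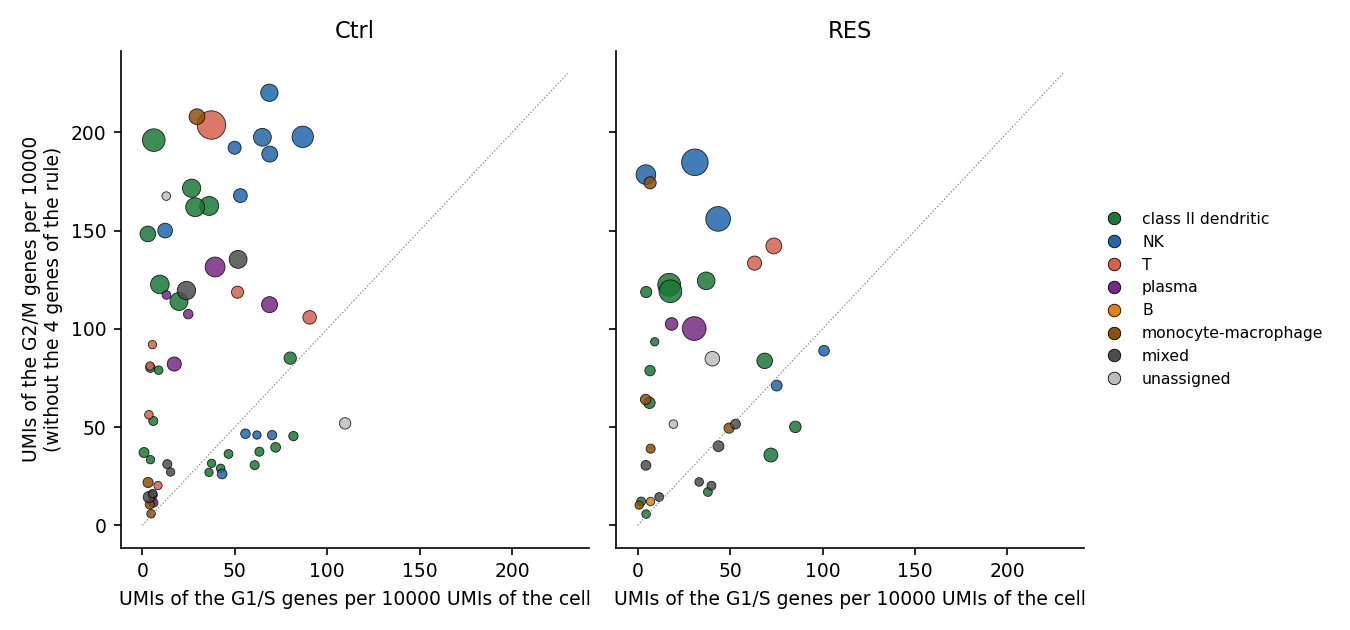
UMIs of the listed G1/S genes (x axis) and G2/M genes (y axis), each per 10000 UMIs of the cell and without the genes of the rule, for every cycling cell of Ctrl and RES; colours give the lineage, point size grows with the 4-gene sum and the dotted line marks equality. Of the 38 cells with a sum of 20 or more, 37 lie above the line. The sum is itself mostly of late genes, and most noncycling cells, not drawn, also had more of the G2/M list.

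Gene sums of cycling cells were then set against noncycling cells of the same lineages. The 51 Ctrl and 28 RES members with 1 lineage were summed, and noncycling cells were weighted to the same lineage make-up. A gene counted as measured with at least 100 CPM in cycling or noncycling cells of each library, and as higher or lower when it was at least 1.5-fold apart in the same direction in both libraries. Log2 ratios are on the scale of CPM plus 10, which understates low genes. Of 1538 genes, 164 were higher (10.7%) and 96 lower (6.24%) in cycling cells, with a median log2 ratio over all genes of 0.03 in Ctrl and 0.04 in RES. Low genes enter this count only when they are high in cycling cells, so the counts of cell cycle lists below are a description and not support.

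The highest gene outside the rule was Pclaf, which encodes a factor that binds the replication clamp PCNA. It was at 690 and 720 CPM in cycling and 1.09 and 3.37 CPM in noncycling cells (log2 ratios 5.98 and 5.77), with UMIs in 37 of 51 and 21 of 28 cells. The linker histone gene Hist1h1b followed, at 907 and 1255 CPM against 24.4 and 24.9 CPM (4.74 and 5.18). Stmn1 was at 959 and 945 CPM against 28.7 and 19.5 CPM (4.65 and 5.02). Cenpf, a kinetochore protein gene, was at 297 and 235 CPM against 1.89 and 1.74 CPM (4.69 and 4.39). The other highest genes were the spindle gene Nusap1 (4.35 and 4.46), the kinetochore gene Spc24 (4.09 and 4.11), the histone genes Hist1h3c (4.09 and 4.06) and Hist1h2ae (4.06 and 4.04), the spindle assembly factor Tpx2 (4.10 and 4.03) and the mitotic cyclin Ccnb2 (4.01 and 3.97). Of these 10 genes, 9 were on a cell cycle list.

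Genes of DNA synthesis were higher together. Of 43 listed G1/S genes 33 were under the level limit, and the 10 measured were all higher, with medians of 1.93 in Ctrl and 2.0 in RES. Pcna, the replication clamp, was at 177 and 186 CPM against 47.7 and 55.4 CPM, and Slbp, which binds histone messages, at 246 and 210 CPM against 86.6 and 85.2 CPM. Rrm2, the regulated subunit of ribonucleotide reductase, was at 116 and 153 CPM against 0.643 and 0.277 CPM. Of 12 nucleotide synthesis genes 5 were measured and 5 higher, and of 19 genes of origin licensing and firing 4 were measured and 4 higher, among them Mcm3, a subunit of the replicative helicase, at 136 and 129 CPM against 29.0 and 18.1 CPM. Of 13 replication histone genes 7 were measured and 6 higher.

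Genes of mitosis were higher too. Of 50 listed G2/M genes 23 were measured and 22 higher, with medians of 2.43 and 2.47; Jpt1 was the exception, at 416 and 367 CPM against 228 and 264 CPM. Of 17 centromere and kinetochore genes 7 were measured and all 7 higher (3.93 and 3.95). Cenpe, the kinesin that links chromosomes to the spindle, was at 161 and 175 CPM against 1.26 and 1.46 CPM. Of 19 genes of the spindle, kinesins and mitotic kinases 6 were measured and 6 higher (3.52 and 3.88), and of 11 condensin and chromosome structure genes 6 and 6 (1.85 and 2.19). Smc2, a condensin core subunit, was at 278 and 288 CPM against 21.8 and 20.5 CPM.

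All 13 chromatin and tubulin genes were measured and higher, with medians of 2.23 and 2.08. These genes are abundant in noncycling cells as well, so most passed the level limit there. Hmgb2, a chromatin protein, was at 2736 and 2972 CPM against 288 and 264 CPM. H2afz, a histone variant gene, was at 2891 and 2983 CPM against 1040 and 1076 CPM, and Tuba1b, an alpha tubulin, at 997 and 1018 CPM against 143 and 193 CPM. The difference for H2afz was thus about as large in Ctrl (1.47) as in RES (1.46).

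Cyclins split by phase. Ccna2, the cyclin of S phase and G2, was at 145 and 137 CPM against 0.214 and 0.255 CPM, and Cks1b, a cyclin-dependent kinase subunit, at 272 and 339 CPM against 14.0 and 21.2 CPM. The D cyclins, which drive entry into the cycle, were not higher. Ccnd1 was at 237 and 124 CPM against 319 and 164 CPM, Ccnd2 at 174 and 247 CPM against 315 and 293 CPM, and Ccnd3 at 166 and 216 CPM against 213 and 234 CPM. None of the 3 was 1.5-fold apart in both libraries. Within NK cells, Ccnd2 was at least 1.5-fold lower, at 349 and 412 CPM against 763 and 646 CPM. Ccnd2 was also lower within dendritic cells, as given below.

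Antigen presentation genes were close to level, and oxidative phosphorylation genes were slightly higher, mostly by less than 1.5-fold. Of 8 MHC class II genes, 1 of which was used to name dendritic cells, 0 were higher and 1 lower (medians -0.25 and -0.19). H2-Ab1 was at 3350 and 3809 CPM against 3366 and 3667 CPM, and the lower gene was Ctss, which encodes the protease cathepsin S, at 394 and 602 CPM against 653 and 956 CPM. Of 13 oxidative phosphorylation genes 1 was higher (medians 0.51 and 0.44), namely Cycs, and of 9 glycolysis genes 0 were 1.5-fold apart the same way in both libraries (medians 0.62 and 0.11). Gapdh, a glycolytic enzyme, was at 1074 and 1161 CPM against 506 and 941 CPM. Of 4 measured MYC and ribosome biogenesis genes 1, the nucleolar gene Nop58, was higher.

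**Figure D5:**
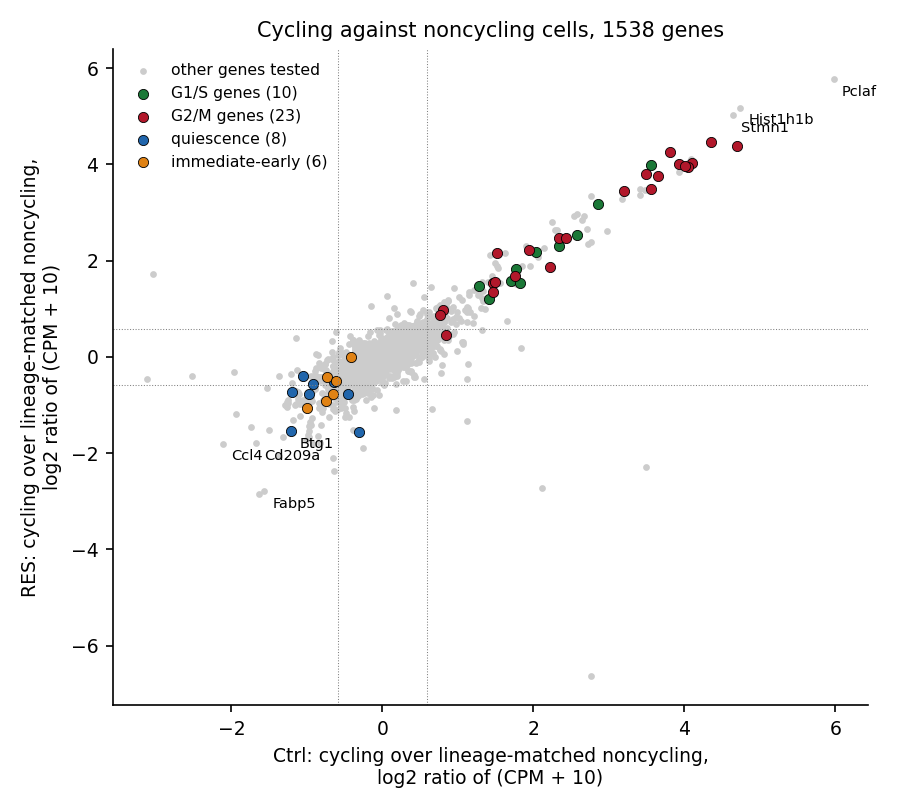
Log2 ratio of cycling over lineage-matched noncycling cells (CPM plus 10) in Ctrl (x axis) and RES (y axis) for 1538 genes, with dotted lines at 1.5-fold and colours for the measured G1/S (10), G2/M (23), quiescence-linked (8) and immediate-early genes (6). The G1/S and G2/M genes lie in the upper right, and the quiescence-linked genes lie below 0 in both libraries.

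Among the 10 lowest genes, Ccl4, a chemokine of activated NK cells and macrophages, was at 52.7 and 51.0 CPM against 261 and 203 CPM (log2 ratios -2.11 and -1.81). Cd209a was at 58.6 and 49.0 CPM against 210 and 195 CPM (-1.68 and -1.80), and Fabp5, a fatty acid binding protein, at 41.0 and 43.2 CPM against 141 and 357 CPM (-1.57 and -2.79). Bcl2, the survival factor, was at 58.6 and 39.2 CPM against 161 and 145 CPM (-1.32 and -1.66). Btg1, an antiproliferative gene high in resting lymphocytes, was at 376 and 308 CPM against 885 and 916 CPM (-1.21 and -1.54). The 10 lowest also held the NK receptor gene Klra9, the interferon-induced gene Ifitm2, the surface antigen gene Ly6c2, the signalling adaptor Traf1 and the transcription factor gene Zbtb20.

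Of 13 quiescence-linked genes 8 were measured, 0 were higher and 3 lower (medians -0.95 and -0.76): Btg1, the transcription factor Foxp1 and the thioredoxin inhibitor Txnip. Of 6 measured immediate-early genes, which cells induce within minutes of a stimulus or of dissociation, 3 were lower (-0.69 and -0.64), namely Junb, Ier2 and Dusp1. Junb, a subunit of the AP-1 factor, was at 252 and 310 CPM against 512 and 661 CPM. Against deep noncycling cells, 137 of 1487 genes were higher (9.21%) and 45 lower (3.03%). Depth was not equal there. All deep noncycling cells had medians of 9903 UMIs in Ctrl and 13408 in RES, against 11908 and 15766 in all members. The T cells among the deep cells numbered 5 in Ctrl and 1 in RES. Of the higher genes 127 were shared with the comparison above, and of the lower 42. Against the deep cells 2 of 7 quiescence-linked and 1 of 5 immediate-early genes were lower, the latter Junb. Ccl4, Klra9 and Zbtb20 were no longer among the lower genes. The lower genes thus changed with the choice of reference cells more than the higher ones.

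CCAAT was more frequent before the higher genes than before the lower ones, and TTTGAA was not. A window of 250 bases was found for 130 of the 164 higher genes, 74 of the 96 lower genes and 1213 of the 1538 measured. CCAAT was held by 62.3% of the higher, 39.2% of the lower and 41.6% of the measured genes. TTTGAA was held by 19.2%, 21.6% and 12.6%. Both motifs together were held by 13.8%, 6.76% and 5.69%, which are 18, 5 and 69 genes.

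Cycling dendritic cells were also set against noncycling dendritic cells, with 22 and 13 cells. Of 1475 genes, 140 were higher (9.49%) and 98 lower (6.64%), or 120 and 124 with TMM scaling, and all 7 measured G1/S and 18 of 19 measured G2/M genes were among the higher. The lowest gene was Fabp5, at 32.0 and 49.5 CPM against 287 and 663 CPM (-2.82 and -3.50). Il4i1, an amino acid oxidase of mature dendritic cells, was at 3.20 and 15.2 CPM against 126 and 149 CPM, and Ccl5, a chemokine for T cells, at 54.5 and 76.2 CPM against 342 and 304 CPM. Marcksl1, Traf1, Slfn5 and Ifitm2 were lower too, as was Clec10a, a lectin of type 2 dendritic cells, at 12.8 and 80.0 CPM against 148 and 267 CPM. Apoe, a lipid carrier of macrophages, was at 28.8 and 22.9 CPM against 129 and 540 CPM. Genes of mature, type 2 and macrophage-like cells were thus among the 10 lowest.

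Against deep noncycling dendritic cells, 134 of 1452 genes were higher (9.23%) and 63 lower (4.34%). All 63 were lower in the first comparison too, and of the 10 lowest only Il4i1 and Apoe were not among them. Irf8 was at 871 and 1360 CPM in cycling and 641 and 396 CPM in noncycling dendritic cells. Klrd1, an NK receptor gene that some dendritic cells express, was at 215 and 137 CPM against 376 and 370 CPM. Of 8 quiescence-linked genes 2, Btg1 and Txnip, were lower, and Ccnd2 was lower at 51.3 and 114 CPM against 182 and 226 CPM.

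Cycling NK cells, 11 and 5 cells, differed from noncycling NK cells in more genes. Of 1754 genes, 266 were higher (15.2%) and 232 lower (13.2%), a balance that turned to 235 higher and 276 lower with TMM scaling. All 17 measured G1/S and 25 of 27 measured G2/M genes were higher. Hist1h1b was at 1382 and 1883 CPM against 25.4 and 18.1 CPM, and Pclaf at 729 and 628 CPM against 2.69 and 3.34 CPM. Ccl4 was at 182 and 144 CPM against 1023 and 831 CPM (-2.43 and -2.45), and the transcription factor gene Klf3 at 38.0 and 20.6 CPM against 243 and 224 CPM (-2.40 and -2.94).

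The lower NK genes depended on which noncycling NK cells were the reference. Depth and make-up of the reference changed together and cannot be told apart. Only 21 Ctrl and 17 RES noncycling NK cells counted as deep, with medians of 9188 and 11052 UMIs against 11357 and 15802 in cycling NK cells. Against the deep cells 220 of 1587 genes were higher (13.9%) and 72 lower (4.54%), with 176 and 54 shared with the first comparison. Quiescence-linked genes went from 7 of 8 lower to 2 of 6, and mature NK cell genes from 4 of 11 lower (Itgam, Zeb2, S1pr5 and Ly6c2) to 0 of 9 lower and 2 higher. Less mature NK cell genes were lower either way, 5 of 7 and 5 of 8, including the chemokine gene Xcl1 and Ltb. Of the glycolysis genes, 4 of 8 were higher (Tpi1, Gapdh, Pgk1 and Ldha), and against the deep cells 0 of 9 were higher and 1 lower. Of 8 MHC class II genes, 0 were measured in the first comparison. Against the deep cells 1 was measured, and it was lower in cycling NK cells (-2.83 and -4.16).

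The last comparison asked whether cycling cells differed between uninjured and resolved liver. In cycling dendritic cells, of 1682 genes that reached 100 CPM in Ctrl or RES, 150 were at least 1.5-fold higher in RES (8.92%) and 118 lower (7.02%). In noncycling dendritic cells 143 of 1577 were higher (9.07%) and 75 lower (4.76%). The gene ranked highest was Fn1, at 6.41 CPM in Ctrl (2 cells) and 663 CPM in RES (8 cells), a log2 ratio of 5.36. Arg1, which encodes arginase, was at 3.20 CPM (1 cell) and 179 CPM (4 cells), a log2 ratio of 3.84. In noncycling dendritic cells Fn1 was at 34.8 and 2356 CPM and Arg1 at 0.733 and 1854 CPM, so both were lower in the cycling cells of RES than in the noncycling ones.

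Those ratios rest on the 2 RES cells with at least 10 Fn1 UMIs. Without them Fn1 was at 46.6 CPM, Arg1 at 8.48 CPM, the chemokine gene Ccl9 at 84.8 CPM in place of 324 CPM (57.7 CPM in Ctrl), and Cd36, a fatty acid receptor, at 148 CPM in place of 248 CPM (32.0 CPM in Ctrl). Without shared barcodes, which leaves 9 RES cells including these 2, Fn1 was at 1270 CPM and Arg1 at 346 CPM. Cd36 was seen in 5 of 22 Ctrl cells, with at most 5 UMIs, and in 8 of 13 RES cells, with up to 16. The other genes ranked highest were AA467197, the heat-shock gene Hspa1b, the ribonuclease gene Ear2, the lectin gene Mgl2, AC160336.1 and the protease gene Ctsc.

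The genes ranked lowest in RES included Ltb, which defined the second profile, and Cd7, which was seen in 9 of its 10 Ctrl cells. Lst1, a small leukocyte membrane protein, was at 147 CPM in Ctrl (13 of 22 cells) and 7.62 CPM in RES (2 of 13 cells), a log2 ratio of -3.16, and Ltb at 128 and 15.2 CPM (11 and 2 cells, -2.45). Cd7 was at 144 and 19.1 CPM (12 and 3 cells, -2.41). In noncycling dendritic cells the ratios of these genes were smaller, at -0.65, -0.72 and -0.52. Without shared barcodes the RES levels were 7.51 CPM for Lst1, 30.1 CPM for Ltb and 15.0 CPM for Cd7. The others were Ffar2, Clec4a1, Ifitm6, Bex6, Rchy1, the cytokinesis kinesin gene Kif23 and Ramp1.

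Among the lists, glycolysis genes were higher in 4 of 10 and lower in 1 of 10 in cycling dendritic cells (median 0.52), and higher in 8 of 11 in noncycling ones (median 1.10). MHC class II genes were higher in 1 of 8 (median 0.02). The G1/S and G2/M lists had 2 of 12 and 0 of 26 higher and 1 and 2 lower (medians -0.02 and -0.19). In noncycling dendritic cells 0 and 4 genes of these lists were measured. Cells of both libraries had passed the same limit on 4 cell cycle genes, so these values describe the selected cells and give no result on RES against Ctrl.

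Between cycling NK cells of the 2 libraries, 11 against 5 cells, 324 of 1917 genes were higher in RES (16.9%) and 293 lower (15.3%). In noncycling NK cells, with 1425 and 1429 cells, 9 of 1631 were higher (0.552%) and 2 lower (0.123%). The calls in cycling NK cells were made on far fewer UMIs, and the difference of the shares was not tested. All 5 measured immediate-early genes were lower in RES cycling NK cells (median -1.17) and 0 of 5 in noncycling NK cells (median -0.01). Of G2/M genes 12 of 35 were higher and 3 lower, and of G1/S genes 2 of 25 were higher and 7 lower. The RES cycling NK cells included 2 shared barcodes among their 5.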

How the data were processed

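The deposited matrices hold UMI counts per gene and barcode, without normalization, for 31053 genes. Cell Ranger 3.1.0 made them per the file headers; bcl2fastq, Cell Ranger and mm10 are named in the submitters' processing notes. Its annotation is not given in the sources used here. From the counts onward everything was computed here (Python 3.11.15, scanpy 1.11.5 for Scrublet at 0.8% per 1000 barcodes, edgeR 4.0.16 for TMM factors). Called doublets were kept in the main values. The members and all lists were chosen with earlier results of these data known.

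A lineage needed both UMIs and UMIs per 10000: Ncr1 plus Klrb1c 2 and 1.5 (NK), 3 Cd3 genes 5 and 2 (T), Jchain plus Mzb1 5 and 3 (plasma), Cd79a 3 and 2 (B), Lyz2 plus Csf1r 5 and 20 (monocyte or macrophage), and H2-Ab1 5 and 8 without the last 3 (class II dendritic). More than 1 lineage was called mixed. The plan asked for 30 cycling cells per library and lineage, which no lineage reached, so lineages were matched and pooled, and dendritic and NK cells given at fewer cells.

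Ranked genes are the 10 highest and 10 lowest by the smaller of both libraries' log2 ratios (RES against Ctrl: by log2 ratio), leaving out the rule's genes and those of mitochondria, ribosomal proteins, haemoglobin, Xist and the Y chromosome; list genes are named from the 2 highest and 2 lowest and others picked after their values were seen. The calling rule was tested on simulated counts of 1535 genes drawn from the summed noncycling Ctrl cells, where 197 of 200 genes changed 3-fold were recovered. The weighting by lineage and the spread between cells were not part of that test. Library totals were 20379164 UMIs in Ctrl and 34119806 in RES. Some listed genes are not reported here.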

Additional observations from a re-analysis of the deposited data

How the results depend on the processing

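Among single values, the order of Ctrl and RES turned for the cycling share of monocytes and macrophages, from 0.366% and 0.267% to 0.286% and 0.435% thinned to 2000 UMIs. The most frequent lineage of cycling cells went from dendritic to NK cells in Ctrl on thinning, and NK cells equalled monocytes and macrophages in RES at 27.6%. Of the values set against alternatives, 80 planned and 50 added ones stayed within their interval or within 1.5 times, and 22 and 8 did not. The share of cycling cells was 1.25% in Ctrl with a sum of at least 6 and 1.35% in RES with a sum of at least 3; thinned to 1000 UMIs it was 3.11% and 1.49%, and with a sum of at least 20 it was 0.696% and 0.337%. The dendritic share of cycling cells was 20.7% in RES thinned to 2000 UMIs, and 18.3% in Ctrl and 14.8% in RES thinned to 1000, and the NK share in Ctrl was 35.4% and 43.3% at these depths. The cycling share within dendritic cells was 2.39% in Ctrl and 1.66% in RES with a sum of at least 20 and 2.01% in RES thinned to 2000; within NK cells it was 3.16% in Ctrl and 1.19% in RES thinned to 1000 and 0.837% in RES with a sum of at least 3. Lineage-matched genes higher in cycling cells numbered 456 with a 20 CPM limit and 577 with none, and lower ones 322, 442, and 45 against deep cells. Genes higher in RES cycling dendritic cells numbered 978 with a 20 CPM limit, 1610 with none, 283 with a sum of at least 20 and 273 without shared barcodes, and lower ones 823, 1511, 274 and 213. The lower limits test more genes and the other settings sum fewer cells; the cause of the remaining shifts was not tested. The sum of at least 20 and the settings without shared barcodes were chosen after seeing the data. In cycling against noncycling NK cells, 642 genes were higher and 803 lower with a 20 CPM limit and 750 and 1334 with none, and in dendritic cells 446 and 334, and 573 and 532. TMM factors shifted ratios by -0.13 to -0.01 and gave 235 higher and 276 lower genes in NK cells and 120 and 124 in dendritic cells, so that the balance turned in both. No paired analysis was possible because each group was 1 library, and no library could be left out. Summed members held 792335 UMIs in Ctrl, which limits genes of low level.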

Other observations

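The 4 cycling cells with no lineage were 2 in Ctrl, with 13500 UMIs and a 4-gene sum of 18 and with 776 UMIs and a sum of 5, and 2 in RES, with 20057 UMIs and a sum of 37 and with 3108 UMIs and a sum of 5. The first had 148 UMIs of the listed G1/S genes and 70 of the G2/M genes. The cell at 776 UMIs was the shallow copy of a barcode whose RES copy was a dendritic cell with a sum of 107.

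Among the 12 cycling cells with markers of more than 1 lineage, 8 were not called doublets. A Ctrl cell with 20591 UMIs and a sum of 66 had 15 Ncr1, 13 Klrb1c and 65 Nkg7 UMIs of NK cells beside 233 Lyz2 and 31 H2-Ab1 UMIs. A RES cell with 29324 UMIs, a sum of 6 and a shared barcode had 3 Ncr1, 3 Klrb1c and 189 H2-Ab1 UMIs with Lyz2 at 0.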
